A study of Mus musculus with 6 samples.

Results

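The choroid plexus is the epithelial sheet in the brain's ventricles that secretes cerebrospinal fluid, and 9 of its marker genes, Ttr, Kcne2, Folr1, Aqp1, Kl, Calml4, Enpp2, Kcnj13 and Sostdc1, are described here across 6 libraries of mouse cortex. They were chosen by gene symbol, with the library values of these data already known, and all 9 have a row among the 13582 gene rows of the deposited table. The resveratrol group held 3 C57BL/6 mice given 1 intraperitoneal injection of resveratrol, a plant polyphenol, at 10 mg/kg. The vehicle group held 3 C57BL/6 mice given the vehicle by the same route, with the same dose entry in its label. No transgene or mutant allele is labelled in either group. All mice were 10 weeks old when killed, 2 weeks after the injection, and total RNA of the right cortex was sequenced after depletion of ribosomal RNA with a stranded kit. The study addressed the state of the cortex in the later period of tolerance to ischaemia that resveratrol brings about.

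Choroid plexus epithelial cells draw water and ions from blood to ventricle through polarised channels, pumps and transporters. They also release carrier proteins, hormones and enzymes into the fluid they make. The tissue lies in the ventricles and not in the cortex, so transcripts such as Ttr are widely used in brain RNA data as a sign of choroid plexus in a sample. In bulk tissue, fewer cells of a type and less RNA per cell cannot be told apart.

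Levels are FPKM, the fragments of a transcript divided by its length and by the size of the library, as the authors computed them. They can be compared between genes because they are scaled by length. The files used here hold no read counts, so depth is unknown. Summed FPKM ran between 380485.7 and 397876.5 in the resveratrol libraries and between 351730.8 and 393450.8 in the vehicle libraries, with medians of 10.1 to 10.2 and 9.85 to 10.2 FPKM. Markers of cortical neurons summed to 439 to 457 FPKM in resveratrol libraries and 395 to 476 FPKM in vehicle libraries. Markers of striatal neurons stood apart, with 270, 589 and 393 FPKM in resveratrol libraries 1, 2 and 3 and 845, 478 and 322 FPKM in vehicle libraries 1, 2 and 3.

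The shared pattern of the 9 genes was 1 library. All 9 were highest in resveratrol 3, as were 21.0% of the 13574 genes tested, and 6 were lowest in vehicle 1, as were 18.8% of genes. Both held for 6 of the 9 and for 7.9% of genes. Resveratrol 3 was highest with resveratrol 1 second highest for 6, and these 2 places together were held by 2.77% of genes. In 7 of the 9, resveratrol 3 was at least 2-fold above the median of the other 5 libraries, against 0.494% of genes. The highest library was at least 3-fold above the lowest in 8 of the 9, against 3.07% of genes. The genes were picked with this pattern known, so these shares are a description and nothing is read from them about treatment. The plot of FPKM by library shows the point of resveratrol 3 above the 5 others in each panel.

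**Figure D1:**
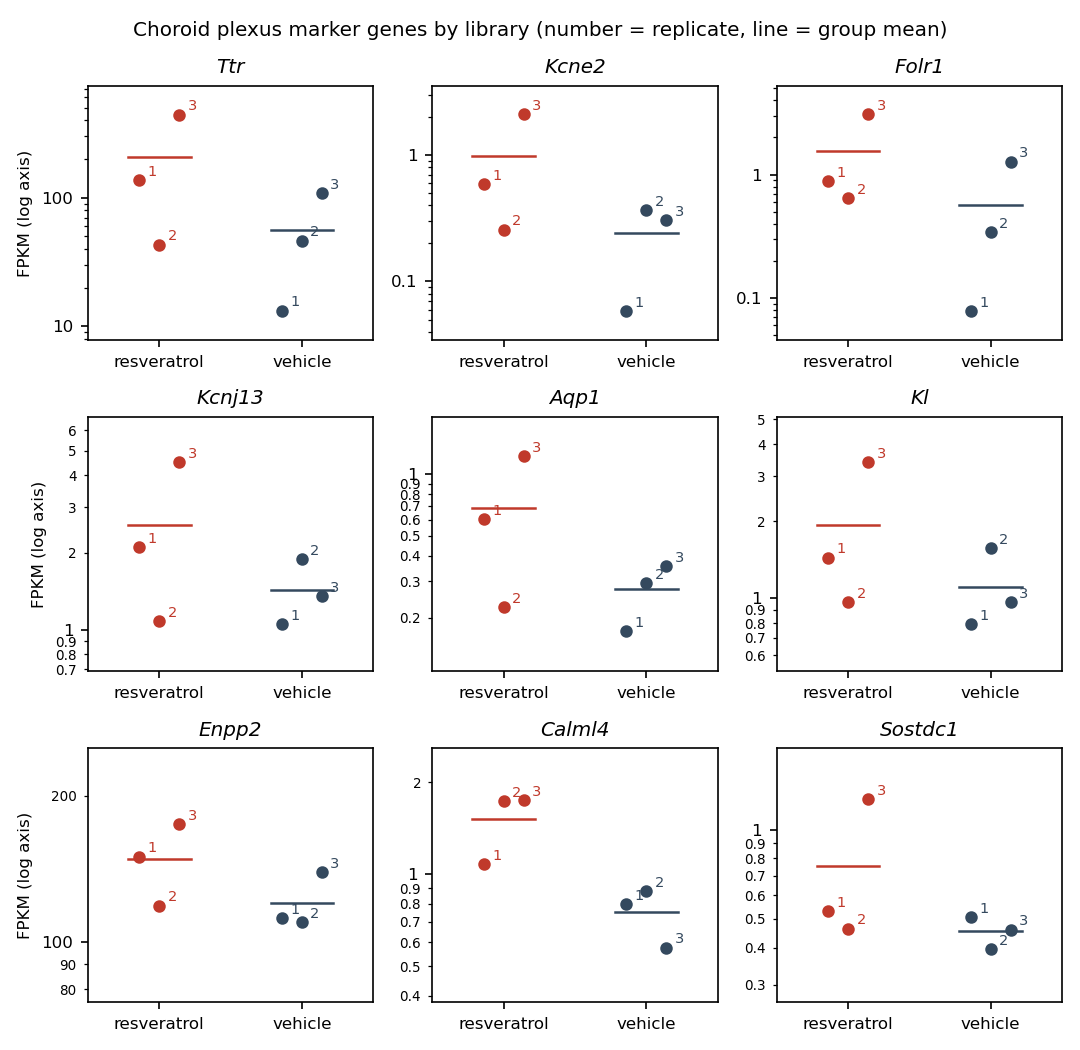
FPKM (log axis) of each of the 9 genes in the 3 resveratrol libraries, left, and the 3 vehicle libraries, right; numbers are replicate numbers and horizontal lines are group means. Resveratrol 3 is the highest library in each panel, and the groups separate for Calml4 alone.

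Promoter windows, 250 bases before to 50 after a gene's start, were found for Kcne2, Kcnj13, Aqp1, Kl and Calml4 in RefSeq (GRCm38.p6). They were searched on both strands for TAATCC, the core bound by homeodomain factors of the OTX2 type, the forkhead core TGTTTA, the TATA box TATAAA and the E-box CACGTG. Over all 32851 windows these occur in 7.06%, 13.4%, 13.6% and 7.15%. Among the 6 windows of these 5 genes, matches were found in that of Kcnj13, where TATAAA begins at base -29 from the start and overlaps TAAACA, the other strand of TGTTTA, at -27. The windows of the 2 potassium channel genes are printed because Kcnj13 holds these matches, in capitals, and the first window of Kcne2, at the annotated start of the gene, holds none; they lie at chr1:87394680-87394979 on the minus strand and chr16:92292139-92292438 on the plus strand.
Kcnj13: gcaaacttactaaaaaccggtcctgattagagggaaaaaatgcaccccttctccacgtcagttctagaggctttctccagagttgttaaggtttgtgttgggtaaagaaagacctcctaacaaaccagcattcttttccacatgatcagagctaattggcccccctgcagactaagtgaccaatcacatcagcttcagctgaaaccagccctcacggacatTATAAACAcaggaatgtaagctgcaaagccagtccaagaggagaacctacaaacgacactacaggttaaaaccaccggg
Kcne2: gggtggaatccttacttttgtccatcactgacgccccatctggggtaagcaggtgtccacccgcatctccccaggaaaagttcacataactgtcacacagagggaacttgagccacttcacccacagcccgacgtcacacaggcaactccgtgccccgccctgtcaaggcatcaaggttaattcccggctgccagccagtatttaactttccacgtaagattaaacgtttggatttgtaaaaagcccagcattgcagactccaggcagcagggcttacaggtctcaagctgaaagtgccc
A match of letters is not a binding site, and no match says only that these letters are not in the window.

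The position of each gene is given on GRCm38, from the GENCODE M21 annotation. Ttr lies on chromosome 18 (20665280 to 20674321, plus strand), Kl on chromosome 5 (150952607 to 150993817, plus), Enpp2 on chromosome 15 (54838901 to 54952892, minus) and Sostdc1 on chromosome 12 (36314139 to 36318452, plus). Folr1 lies on chromosome 7 (101858331 to 101870788, minus), Aqp1 on chromosome 6 (55336432 to 55348555, plus), Kcne2 on chromosome 16 (92292389 to 92298129, plus), Kcnj13 on chromosome 1 (87386363 to 87394729, minus) and Calml4 on chromosome 9 (62858080 to 62875921, plus). The 9 genes therefore sit on 9 different chromosomes. Kcnj13 lies inside Gigyf2 on the opposite strand, and 49.1% of its exon bases are also exon bases of Gigyf2. Of the exon bases of Enpp2, 5.97% are shared with the antisense transcript Gm26684. Whether strand was used in counting is not given in the sources used here, so the levels of Kcnj13 and Enpp2 may hold reads of these partners.

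Among the secreted proteins, Ttr varied most. Ttr encodes transthyretin, the carrier of thyroxine and retinol-binding protein in cerebrospinal fluid. It had 137, 43.2 and 441 FPKM in resveratrol libraries 1, 2 and 3, against 13.3, 46.4 and 108 FPKM in vehicle libraries 1, 2 and 3. The groups overlap, since resveratrol 2 lay below 2 of the 3 vehicle libraries, and resveratrol 3 was 33.3-fold above vehicle 1. Group means were 207 ± 208 FPKM in resveratrol and 56.0 ± 48.2 FPKM in vehicle (SD, n = 3 each). Ratios given as "-fold" are plain ratios of FPKM. Log2 fold changes, other than those of the authors, are on the log2(FPKM + 0.5) scale, which understates changes of low genes, and that of Ttr was 1.75 ± 0.84 (SE), and 0.91 without resveratrol 3 or 0.96 without vehicle 1. Only 2 of the genes tested stood further above the other 5 libraries in resveratrol 3 than Ttr did, by the log2 difference from their median.

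Kl encodes Klotho, a membrane protein that is also shed into the fluid and is the co-receptor for FGF23. Kl had 1.44, 0.964 and 3.39 FPKM in resveratrol libraries, against 0.795, 1.57 and 0.964 FPKM in vehicle libraries. Resveratrol 1 and 2 lay within the vehicle range, and the log2 fold change of 0.50 ± 0.33 (SE) was 0.10 without resveratrol 3 and 0.80 without resveratrol 2.

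Enpp2 encodes autotaxin, a secreted enzyme that makes lysophosphatidic acid and is also made by oligodendrocytes. Enpp2 had 150, 119 and 175 FPKM in resveratrol libraries, against 112, 110 and 139 FPKM in vehicle libraries. Its level was of the same order as that of Ttr but spread only 1.59-fold from its lowest to its highest library, the narrowest of the 9. The log2 fold change was 0.29 ± 0.16 (SE), with 0.16 without resveratrol 3 and 0.44 without resveratrol 2. Markers of myelinating oligodendrocytes went the other way in resveratrol 3, where 8 of 10 were at their lowest, and summed to 1285 to 1514 FPKM in resveratrol libraries and 1517 to 1641 FPKM in vehicle libraries.

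Sostdc1 encodes a secreted antagonist of BMP and Wnt signals. Sostdc1 had 0.533, 0.464 and 1.27 FPKM in resveratrol libraries, against 0.507, 0.396 and 0.461 FPKM in vehicle libraries. Apart from resveratrol 3, its libraries lay close together, and the log2 fold change of 0.34 ± 0.24 (SE) was 0.07 without that library.

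Both transport proteins were low. Folr1 encodes the folate receptor that carries 5-methyltetrahydrofolate across the choroid plexus. It had 0.881, 0.648 and 3.10 FPKM in resveratrol libraries, against 0.0780, 0.341 and 1.28 FPKM in vehicle libraries. Its second highest value was in vehicle 3, so the groups overlap, and the spread of 39.7-fold between resveratrol 3 and vehicle 1 was the widest of the 9. The log2 fold change was 0.91 ± 0.48 (SE), 0.40 without resveratrol 3, 0.55 without vehicle 1 and 1.36 without vehicle 3.

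Aqp1 encodes the water channel aquaporin-1 of the ventricle-facing membrane. Aqp1 had 0.604, 0.226 and 1.23 FPKM in resveratrol libraries, against 0.172, 0.296 and 0.358 FPKM in vehicle libraries. Resveratrol 1 and 3 lay above all vehicle libraries and resveratrol 2 below 2 of them. Its mean over the 6 libraries was under the 0.5 FPKM needed for testing, and without that filter the log2 fold change was 0.53 ± 0.29 (SE), with 0.22 without resveratrol 3 and 0.84 without resveratrol 2.

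Among the potassium channel genes, Kcne2 encodes an accessory subunit of voltage-gated channels. Kcne2 had 0.590, 0.257 and 2.10 FPKM in resveratrol libraries, against 0.0584, 0.365 and 0.304 FPKM in vehicle libraries. Resveratrol 3 was 6.91-fold above the median of the other 5, and vehicle 1 was well below the rest. The log2 fold change was 0.82 ± 0.40 (SE), and 0.32 without resveratrol 3.

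Kcnj13 encodes the inward rectifier Kir7.1. Kcnj13 had 2.11, 1.08 and 4.50 FPKM in resveratrol libraries, against 1.05, 1.89 and 1.35 FPKM in vehicle libraries. Leaving out resveratrol 3 brought the log2 fold change of 0.53 ± 0.36 (SE) to 0.10, and leaving out resveratrol 2 brought it to 0.93.

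Calml4, which encodes a calmodulin-like protein, followed the others least. Calml4 had 1.08, 1.73 and 1.75 FPKM in resveratrol libraries, against 0.80, 0.880 and 0.575 FPKM in vehicle libraries. Each resveratrol library was above each vehicle library, and resveratrol 2 was close to resveratrol 3. Groups that do not overlap, with resveratrol higher, were found for 1 of the 9 genes and for 4.28% of all genes. The means were 1.52 ± 0.383 FPKM in resveratrol and 0.752 ± 0.158 FPKM in vehicle (SD, n = 3 each). The log2 fold change was 0.68 ± 0.20 (SE) and kept most of its size, 0.59, without resveratrol 3. The unadjusted limma p was 0.00646 and the adjusted limma p 0.987. In the authors' deposited table Calml4 has the same locus entry as Cln6, whose log2 fold change there was -0.54. The GENCODE M21 annotation gives no overlap of Calml4 with Cln6. Whether reads were shared between Calml4 and Cln6 in counting was not tested.

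Fold changes of all 9 genes were above 0, as were 56.1% of all genes, with a median of 0.53 for the 9 and 0.02 over all genes. Without resveratrol 3 all 9 stayed above 0, as did 57.9% of genes, and the medians were 0.22 for the 9 and 0.03 over all genes. Without resveratrol 2 the median of the 9 was 0.84. Of the 9, 4 are listed through the resveratrol mean alone, as set out below, which bears on their direction. These directions are therefore a description. The plot of fold changes with libraries left out shows the value without resveratrol 3 as the lowest of the 6 for all but Calml4, which was lowest without vehicle 3. SE ran between 0.16 and 0.84 over the 9 genes, and its median over all genes was 0.14.

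**Figure D2:**
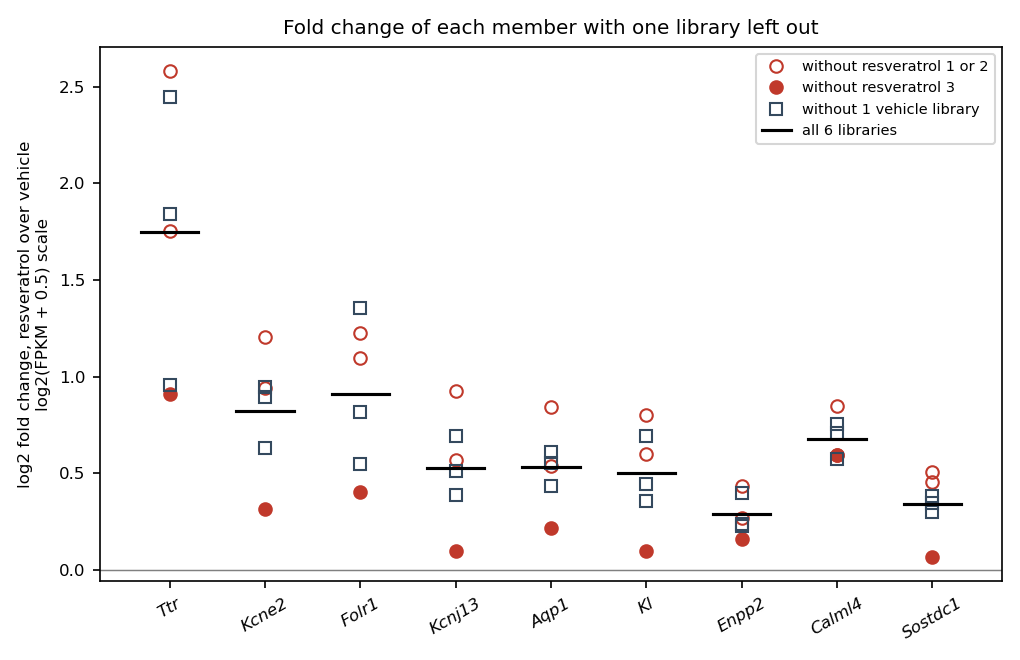
Log2 fold change of resveratrol over vehicle, on the log2(FPKM + 0.5) scale, for each of the 9 genes with all 6 libraries (black lines) and with each library left out in turn (symbols). For Ttr the value is 1.75 with all libraries and 0.91 without resveratrol 3, against 0.68 and 0.59 for Calml4.

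No member passed the limma test, a moderated linear model fitted across all genes, at an adjusted p of 0.05. The 8 members above the 0.5 FPKM filter each had a limma adjusted p of 0.987, and so did Aqp1 without the filter. Of the 13574 genes tested, 1 passed, a share of 0.00737%. At an unadjusted limma p under 0.05, 1 of the 9 (Calml4) was higher in resveratrol, as were 1.64% of all genes.

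In the authors' deposited table, 5 of the 9 genes were called at a q-value under 0.05, where 0.744% of rows were called and 0.11% were called as higher. They were Ttr (log2 fold change 1.89, q 0.0115), Kcne2 (2.02, q 0.0369), Folr1 (1.45, q 0.0471), Aqp1 (1.32, q 0.0471) and Kl (0.80, q 0.0115) in the authors' deposited table. These 5 made up 33.3% of the 15 genes called higher there, and Kcne2 and Ttr had the largest log2 fold changes of the 15. The 9 genes were chosen with earlier results of these data known, so these shares and places are a description. Kcne2, Folr1 and Aqp1 are also listed through the resveratrol mean alone, as set out below, which bears on their being called as higher. Resveratrol 3 was the highest library for 13 of those 15. Calml4, whose groups do not overlap, had a q-value of 0.971 in the authors' deposited table, while Ttr, whose groups do, was called.

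Listing in the deposited table bears on these folds. No row has a higher group mean under 0.661 FPKM, and 127 rows reach that level in the resveratrol mean alone, with 197 in the vehicle mean alone. Of the 9 genes, 4 are listed through the resveratrol mean alone, namely Kcne2 (0.982 FPKM in resveratrol and 0.243 FPKM in vehicle), Folr1 (1.54 and 0.565 FPKM), Aqp1 (0.687 and 0.275 FPKM) and Sostdc1 (0.756 and 0.454 FPKM). If that level was a condition for listing, such a gene had to be higher in resveratrol to appear at all. Without resveratrol 3, the resveratrol means of Kcne2, Aqp1 and Sostdc1 were 0.424, 0.415 and 0.499 FPKM, under that level in both groups.

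Set against all genes, the 9 differ in how far resveratrol 3 departs from the other 5 libraries more than in the remaining contrast. The genes were picked with this departure known, so its size and the places given here are a description. The median departure was 1.41 on the log2 scale for the 9 and 0.00 over all genes. Ordered by this departure among the 13574 genes tested, Ttr would stand at place 3, Kcne2 at 6, Folr1 at 7, Kcnj13 at 8 and Kl at 9. Aqp1 would stand at 15, Sostdc1 at 40, Calml4 at 93 and Enpp2 at 217.

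**Figure D3:**
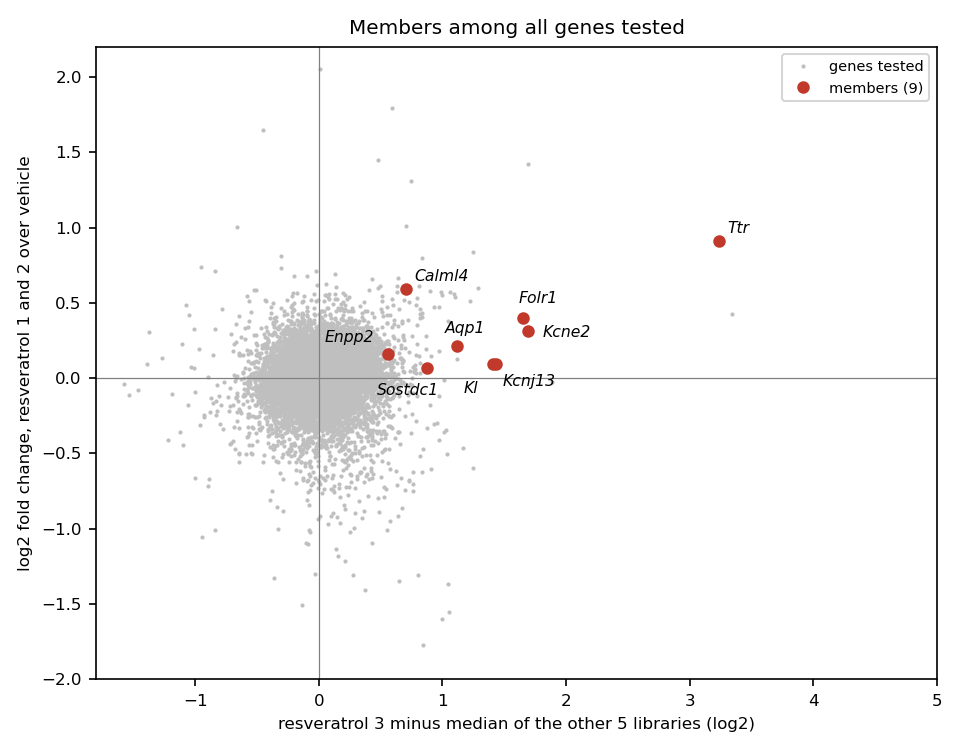
Each grey point is a gene tested, by its log2 departure of resveratrol 3 from the median of the other 5 libraries (horizontal axis) and its log2 fold change of resveratrol 1 and 2 over vehicle (vertical axis); red points are the 9 genes, and 7 genes lie outside the axes. Ttr is far to the right, while Kl and Kcnj13 lie to the right with a fold change of 0.10 on the vertical axis.

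The genes moved by unequal factors between libraries. Per 1000 FPKM of Ttr, Folr1 lay between 5.89 and 15.0 FPKM and Kcne2 between 2.81 and 7.87 FPKM over the 6 libraries, ranges of 2.55-fold and 2.80-fold. Aqp1 ranged 4.66-fold on the same scale, and Kl and Kcnj13 each 7.81-fold. The ratios of Sostdc1, Calml4 and Enpp2 ranged 13.3-fold, 15.3-fold and 21.3-fold. Kcne2 and Folr1 thus kept nearest to Ttr, and Enpp2 least. In vehicle 1, Kcne2 had 0.0584 FPKM and Folr1 0.0780 FPKM, and depth is unknown, so their ratios in that library are uncertain.

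**Figure D4:**
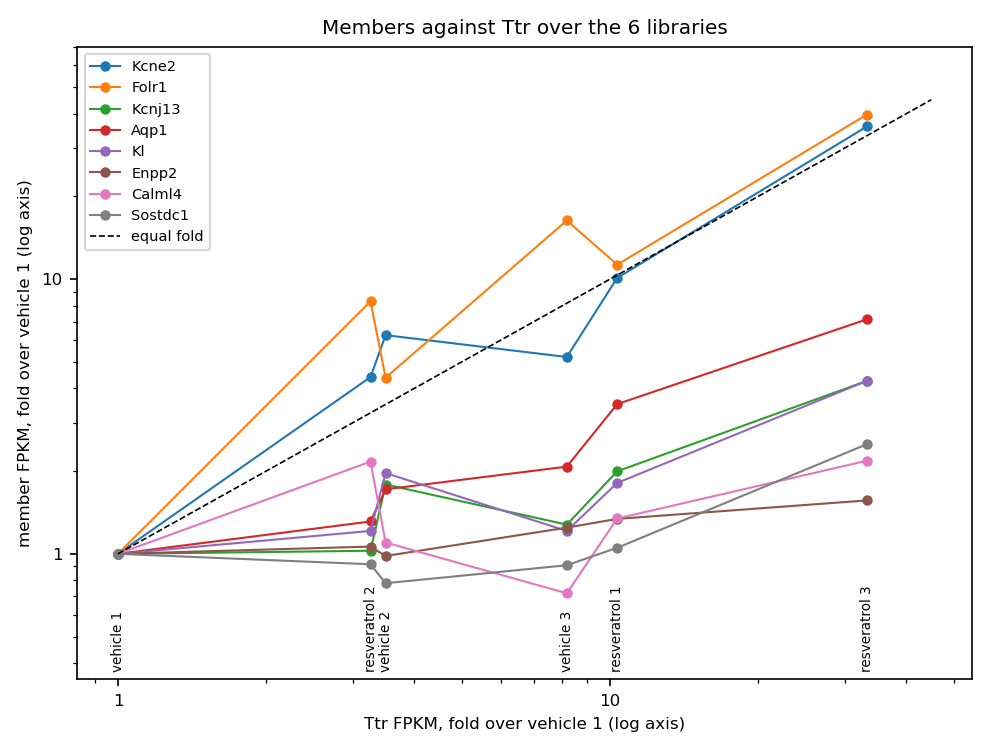
FPKM of 8 genes as fold over vehicle 1 against that of Ttr (both axes log), with libraries named along the bottom in order of Ttr; the dashed line marks equal fold. Kcne2 and Folr1 run near the dashed line, and the other 6 stay below it in resveratrol 3. The folds of Kcne2 and Folr1 are set against low vehicle 1 values of 0.0584 and 0.0780 FPKM.

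Likeness over the 6 libraries was measured as Pearson's r with the mean standardised log2 level of the 9 genes. It was 0.993 for Kcne2, 0.983 for Aqp1, 0.928 for Ttr and 0.594 for Calml4, in each case with the gene itself part of the mean. Without resveratrol 3 it was 0.967 for Aqp1, 0.956 for Kcne2, 0.919 for Ttr, 0.840 for Enpp2 and 0.768 for Kcnj13. Folr1 then had 0.733, Kl 0.648, Sostdc1 0.275 and Calml4 0.132. Among 699 other named genes with a log2 range of at least 1, Col8a2 was most like the 9 over all 6 libraries (r 0.996). Col8a2 had 0.589, 0.398 and 1.23 FPKM in resveratrol libraries and 0.279, 0.419 and 0.493 FPKM in vehicle libraries. Next came Mtag2 (r 0.921), H2-Ab1 (0.914), Dtx2 (0.905), Grp (0.905), Rpph1 (0.893), Junb (0.886), Dcdc2b (0.879), Pgp (0.878), Dusp4 (0.875), Kcnk12 (0.867) and Hist1h3i (0.860). Without resveratrol 3, r stayed at 0.8 or more for 5 of these 12, with 0.972 for Col8a2, 0.913 for Grp and 0.890 for Junb. These are correlations over 6 libraries that share resveratrol 3 as a far point, and they are given as a description. Col8a2, H2-Ab1 and Dcdc2b are also listed through the resveratrol mean alone, with vehicle means of 0.397, 0.541 and 0.430 FPKM.

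A wider list of 48 symbols of other choroid plexus genes was set beside the 9, and 31 of the symbols had a row. In this list 1500015O10Rik and Ecrg4 name the same gene, which has its row under the first symbol. In resveratrol, 19 of the 31 had the higher mean log2 level and 12 the lower one, where 56.1% of all genes had the higher one. The median of their log2 fold changes was 0.05, or -0.09 without resveratrol 3. None passed limma at an adjusted p of 0.05 and none had a q-value under 0.05 in the authors' deposited table. At an unadjusted limma p under 0.05, 1 of the 30 tested was higher, as were 1.64% of all genes. That gene was Igfbp2, which encodes a binding protein of insulin-like growth factors (log2 fold change 0.46 ± 0.16 SE). Resveratrol 3 was the highest library for 17 of the 31 and for 21.0% of all genes, with a median departure of 0.37 for the 31.

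The departure in this wider list was uneven. The furthest was 1500015O10Rik, which encodes the secreted peptide precursor augurin, with 3.10, 0.826 and 6.71 FPKM in resveratrol libraries and 1.23, 1.45 and 2.76 FPKM in vehicle libraries. Steap1, a metalloreductase family gene, had 0.811, 0.235 and 1.14 FPKM in resveratrol libraries and 0.170, 0.133 and 0.380 FPKM in vehicle libraries. Steap1 is listed through the resveratrol mean alone, with means of 0.730 FPKM in resveratrol and 0.227 FPKM in vehicle. The prolactin receptor gene Prlr had 0.874, 0.652 and 1.77 FPKM in resveratrol libraries and 0.972, 1.14 and 0.535 FPKM in vehicle libraries. Resveratrol 3 was the highest library for these 3, and the groups overlap in each. Slc12a2, the gene of a sodium, potassium and chloride cotransporter that many other brain cells also use, was lower in resveratrol 3 than the median of the others by a log2 difference of -0.29. The serotonin receptor gene Htr2c had a log2 fold change of -0.47, and was higher in resveratrol 3 than the median of the others.

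Markers of cells that border the choroid plexus were read in the same libraries. Resveratrol 3 was the highest library for 0 of 9 ependymal markers with a row and for 2 of 11 fibroblast markers of the meninges and the choroid plexus stroma, where the share over all genes is 21.0%. The ependymal markers summed to 13.1 to 13.4 FPKM in resveratrol libraries and 16.1 to 19.5 FPKM in vehicle libraries, and 1 had a higher and 8 a lower mean log2 level in resveratrol. The fibroblast markers summed to 38.7 to 44.8 FPKM in resveratrol libraries and 39.0 to 46.9 FPKM in vehicle libraries. No marker of either list passed limma at an adjusted p of 0.05. At an unadjusted limma p under 0.05, 3 ependymal and 2 fibroblast markers were lower in resveratrol, as were 0.788% of all genes. The fibroblast markers were the collagen genes Col1a1 (log2 fold change -0.72) and Col1a2 (-0.49). In the authors' deposited table, 0 of the ependymal and 1 of the fibroblast markers had a q-value under 0.05. Without the ependymal genes Ccdc153 and Tmem212, 1 of the remaining 7 was lower at that unadjusted limma p, and the sums were 11.5 to 12.4 FPKM in resveratrol libraries and 12.7 to 16.3 FPKM in vehicle libraries.

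Vehicle 1, the lowest library for 6 of the 9 genes, was also the highest for all 10 striatal markers. Resveratrol 1, second highest for 6 of the 9, was lowest for 7 of the 10. In resveratrol 3 the striatal markers lay 0.23 below their mean over libraries on the log2 scale, while the 9 choroid plexus genes lay 1.13 above theirs. The part of a difference between libraries in striatal or other tissue content in the levels of the 9 genes was not tested.

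**Figure D5:**
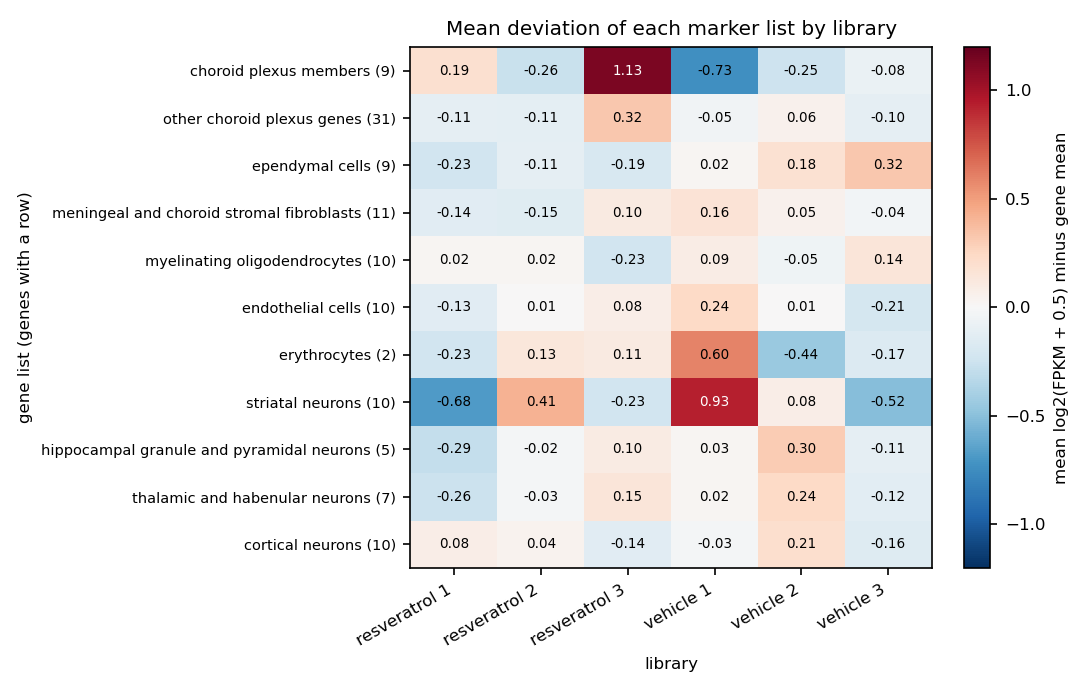
Mean departure of each marker list from the gene means, log2(FPKM + 0.5), by library, with resveratrol libraries left and vehicle libraries right; red is higher and blue lower. The 9 choroid plexus genes reach 1.13 in resveratrol 3 and -0.73 in vehicle 1, and the striatal markers reach 0.93 in vehicle 1.

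Base composition and transcript length moved with several libraries, resveratrol 3 among them. Across 13047 genes, the departure of resveratrol 3 from the gene mean had a Spearman's rho of 0.57 with GC content and -0.33 with transcript length. For GC content, rho was -0.46 and 0.23 in resveratrol 1 and 2, and -0.34, 0.06 and -0.04 in vehicle 1, 2 and 3. For length, rho was 0.00 and -0.14 in resveratrol 1 and 2, and 0.31, 0.47 and -0.50 in vehicle 1, 2 and 3. The 9 genes had GC contents between 44.9% and 54.9%, around the median of 49.6% over all genes. With GC content and length fitted in each library, an alternative chosen after seeing the data, the median departure of the 8 members above the filter in resveratrol 3 was 1.44. The part of GC content or length in the levels of the 9 genes was not tested.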

How the data were processed

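The deposited table holds FPKM per gene for 6 libraries, with a log2 fold change, p-value and q-value per gene computed by the authors, per the file headers. The submitters' processing notes name STAR, Cufflinks, Cuffdiff and GRCm38 without versions. Low FPKM values gave no regular step of 1 read, so counts were not recovered. The deposited loci did not match GRCm38 genes and were not used for the positions given here. Rows with a failed value (2) and rows under a mean of 0.5 FPKM (6) were left out, and log2(FPKM + 0.5) was tested in 13574 genes with limma 3.58.1 (R 4.3.3, trend, two-sided, Benjamini-Hochberg adjustment, threshold 0.05) without covariates. The code was tested on simulated data. Samples were grouped by title. Limma p-values set the group difference against the spread between these mice, with each gene's variance moderated across all genes. The authors' q-values come from their own test. The 9 genes and all lists were chosen with earlier results of these data known. All 9 were named, then the 12 other named genes with the highest r with their mean, and up to 10 genes of each list. Alternatives covered pseudocount, filter, scaling, weights, block and left-out libraries.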

Additional observations from a re-analysis of the deposited data

How the results depend on the processing

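The count of genes past limma's threshold was 1, and 1390 with sample weights, 1 to 7 with 1 library left out (3 without vehicle 2 and 7 without vehicle 3), and 3 without both vehicle 1 and vehicle 2. This last alternative, chosen after seeing the data, leaves 1 vehicle library, which is assumed to vary like the resveratrol group; log2 fold changes there ran between 0.01 (Folr1) and 0.89 (Calml4), with 0.35 for Ttr, 0.07 for Enpp2, 0.68 for Kcne2, 0.57 for Kcnj13, 0.61 for Kl and 0.33 for Sostdc1. Of the 9 genes 0 passed, except with sample weights, where 1 of the 8 tested did. This was Calml4 (log2 fold change 0.72, limma adjusted p 0.0214). With these weights 1390 of the 13574 genes tested passed, so nothing is read from this call about Calml4. Over all alternatives the limma adjusted p of Calml4 lay between 0.0214 and 0.99995. The default estimate of the weights did not converge, so they were estimated gene by gene. The weights were 3.55 for resveratrol 2 and 4.02 for vehicle 1, against 0.266 to 0.786 for the rest. The median log2 fold change of the 9 was 0.88 with a pseudocount of 0.1, 0.45 with a pseudocount of 1 and 0.22 to 0.84 with 1 library left out. The median departure of resveratrol 3 was 1.16 to 1.71. No member changed direction in any alternative in which it was run, but 4 of the 9 are listed through the resveratrol mean alone. Of the 12 genes most like the 9, 5 had an r of at least 0.8 without resveratrol 3. With a replicate block, 1 gene and 0 of the 9 passed, but same-numbered libraries correlated at 0.0383, 0.148 and 0.184, so the numbers were not taken to pair the mice. The filter at 2 FPKM left Ttr and Enpp2, and scaling, weights and GC correction used 8 members, since Aqp1 was under the filter. Depth is unknown, and most of the 9 are near 1 FPKM. The cause of the changes with weights or left-out libraries was not tested.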
